A study of Homo sapiens with 12 samples.

Results

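NFKBIA, TNFAIP3, BIRC3, RELB, CXCL1, CXCL2, CCL20, IL6, LIF and ICAM1 are target genes of the transcription factor NF-kB that encode either regulators of the pathway itself or secreted and surface signals. These 10 genes of the 25369 in the tables were taken by symbol, and each was read in all 12 libraries. The libraries were strand-specific poly(A)+ RNA-seq of RKO (colon carcinoma), A549 (lung adenocarcinoma) and H460 (lung large cell carcinoma) cells, kept in normoxia or moved to hypoxia (1% O2) for 24 h, with 2 replicates in each of the 6 groups. RKO and A549 cells were grown in DMEM and H460 cells in RPMI, all with fetal bovine serum and an antibiotic-antimycotic mix, so that in comparisons of H460 with the other lines the cell line and the medium cannot be told apart. The comparison of oxygen conditions within a line asked how mRNA levels stood after a day of hypoxia, and the comparison of lines asked whether that effect differed between cancer cells of different origin. The study describes the pairs of RNA-seq libraries as independent biological replicates, and the p-values measure the spread between them.

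NF-kB is a family of dimers that inhibitor proteins hold in the cytoplasm. Signals from receptors for TNF, interleukin-1 or microbial products activate the IkB kinase complex, the inhibitor is degraded, and the freed dimer binds kB sites near its target genes. Some of these targets switch the pathway off again and form negative feedback loops. Others encode chemokines that attract neutrophils and lymphocytes, cytokines that signal through the gp130 receptor, and adhesion molecules. Hypoxia acts mainly through the hypoxia-inducible factors (HIF), which bind a short core motif in hypoxia response elements, and both pathways are studied in carcinoma cells because tumours are often poorly oxygenated and inflamed.

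The promoters are shown first, because NF-kB acts on its targets through kB sites. The RefSeq promoter table (GRCh38.p14, from 250 bases before to 50 bases after the start of each gene) held 8 of the 10 genes. RELB and LIF had no entry. A match to the kB consensus motif lay in 7 of the 8 promoters, against 14.0% of all 35116 promoters of the same length. The motif is its own reverse complement, so each match counts on both strands. Each line below gives the match in capitals with its flanking bases, on the strand of the gene.

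NFKBIA (chr14:35404801-35404850, minus strand): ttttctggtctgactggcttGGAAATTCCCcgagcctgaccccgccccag
TNFAIP3 (chr6:137867172-137867233, plus strand): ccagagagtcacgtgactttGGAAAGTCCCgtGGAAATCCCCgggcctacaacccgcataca
BIRC3 (chr11:102317265-102317314, plus strand): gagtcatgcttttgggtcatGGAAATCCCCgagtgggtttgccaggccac
BIRC3 (chr11:102317329-102317378, plus strand): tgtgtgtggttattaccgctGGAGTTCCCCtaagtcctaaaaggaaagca
CXCL1 (chr4:73869294-73869344, plus strand): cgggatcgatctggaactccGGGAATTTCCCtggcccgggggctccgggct
CXCL2 (chr4:74099243-74099293, minus strand): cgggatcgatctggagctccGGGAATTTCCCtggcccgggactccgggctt
CCL20 (chr2:227813743-227813792, plus strand): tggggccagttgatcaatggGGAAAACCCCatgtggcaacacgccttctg
IL6 (chr7:22727107-22727156, plus strand): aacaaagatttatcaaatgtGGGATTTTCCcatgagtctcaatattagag

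The matches began between 55 and 81 bases before the gene start, except those of BIRC3, which began 199 and 135 bases before it. In CXCL1 and CXCL2, neighbouring chemokine genes on chromosome 4, the match holds 2 overlapping copies of the motif. Their windows were identical at 30 of the 31 bases up to the end of the match and at 43 of 51 bases overall. The promoter of ICAM1 had no kB match in these 300 bases. The HIF core motif (ACGTG or GCGTG, both strands) was found in 4 of the 8 promoters (TNFAIP3, BIRC3, CCL20 and ICAM1), against 48.4% of all promoters, and 3 of the 8 held both motifs. In TNFAIP3 the cacgtg in front of the first kB match reads as the HIF core on both strands. A match is a string of letters and was not tested as a binding site.

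Counted reads ranged from 27350424 to 41757584 per library. Levels are given in CPM, which sets the reads of a gene against the size of its library after TMM scaling over all 12 libraries, and levels of different genes are compared only in RPKM, which also divides by gene length. A gene was tested in a line when it was over 0.5 CPM in at least 2 of its 4 libraries, and a call needed an adjusted p below 0.1 together with a fold change above 1.5. Library size alone, in place of TMM, moved log2 fold changes by a median of -0.35 in H460, 0.083 in RKO and -0.091 in A549, and changes are therefore relative to TMM. A control list of HIF targets was called higher for 10 of 10 genes in H460, 9 of 10 in A549 and all 8 that were tested in RKO, and CA9, a carbonic anhydrase, had the largest change of that list in every line. Of 6 colon markers only CDX2 was over 0.5 CPM in RKO (9.29 to 15.5 CPM), while CDX1, VIL1 and LGR5 were at 0. KRT20 and CDH17 were at most 0.0493 CPM in RKO, and CDH17 was higher in the lung line A549, at 1.72 to 2.50 CPM. The lung surfactant gene SFTPA1 was at 0 in all libraries, NAPSA was at 3.26 to 4.89 CPM in A549, and NKX2-1 reached 3.67 CPM in H460. The leukocyte markers CD3E and MS4A1 were at 0 and PTPRC was at most 0.104 CPM in all of them, while CD68 stood between 18.6 and 638 CPM. CD14 was at most 0.107 CPM in RKO but at 5.58 to 10.0 CPM in A549 and 5.49 to 12.98 CPM in H460, and LYZ reached 0.591 CPM.

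Marker sums moved with oxygen in some lines. The 6 epithelial markers together went from between 186 and 196 CPM in RKO normoxia to between 104 and 108 CPM in hypoxia, and in H460 from between 1813 and 1959 to between 2381 and 2567 CPM. The 5 fibroblast markers went from between 49.6 and 85.8 CPM to between 132 and 433 CPM in A549 and from between 0.771 and 0.979 to between 2.27 and 2.51 CPM in RKO. The 6 lung markers in H460 went from between 0.497 and 0.704 to between 4.14 and 4.22 CPM, and the 5 endothelial markers in RKO from between 0.1004 and 0.133 to between 0.666 and 0.813 CPM. The leukocyte sum, mostly CD68, went from between 433 and 476 to between 568 and 638 CPM in RKO and from between 29.5 and 35.3 to between 47.0 and 59.9 CPM in H460. In H460 the 2 hypoxia libraries had TMM factors of 0.786 and 0.829, and the other 10 libraries lay between 0.963 and 1.12. The part of these shifts in the results below was not tested. Single genes carried some of the sums: COL1A1 spanned 47.0 to 429 CPM in A549, and NKX2-1 spanned 0 to 3.67 CPM and KRT19 570 to 1505 CPM in H460. The epithelial markers were not all high. EPCAM was at most 0.498 CPM and CDH1 at most 0.626 CPM in H460, and CDH1 at most 0.106 CPM in RKO, while KRT18 was at least 449 CPM in H460 and 88.7 CPM in RKO. Each library was bulk RNA from a culture of a single cell line, so these sums are not counts of other cell types. Within such a culture, more RNA per cell and more cells in a given state cannot be told apart.

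The number of called genes among the 10 differed between the lines, as did the share called over all tested genes. The effects themselves are compared between lines further below. In H460, 7 of 10 tested genes were called higher in hypoxia and CXCL2 was called lower, against 24.6% and 27.3% of 14080 tested genes in each direction. In RKO, TNFAIP3, BIRC3 and ICAM1 were called higher among 6 tested genes, against 18.8% of 12817 genes called higher and 15.1% called lower. Their median log2 fold change was 1.09 in H460 and 0.66 in RKO, where the median over all tested genes was -0.035 and 0.0073. Each tested gene was over 0.5 CPM in all 4 libraries of its line. With scaling by library size alone, NFKBIA and LIF fell under the fold threshold in H460 (0.56 and 0.51) and CXCL1 and CCL20 were called lower (-0.74 and -0.97), which made 5 higher and 3 lower. The share of all genes called was not taken with this scaling, so these counts have no background.

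In A549, 0 of 9 tested genes were called by edgeR, 2 genes (CXCL1 and CXCL2, both lower) had an unadjusted p under 0.05, DESeq2 called 1 (CXCL1), and limma on log2 RPKM called 0. Over all 14251 tested genes, edgeR called 2.22% higher and 0.456% lower in this line, and 2363 had an unadjusted p under 0.05. With the replicate number as a block, 2 of the 9 genes were called (CXCL1 and CXCL2), against 8.34% of all genes higher and 5.07% lower. The A549 result rested on single libraries. Without hypoxia replicate 1 the log2 fold changes were -0.68 for BIRC3, -1.72 for CXCL1, -2.94 for CXCL2, -1.01 for IL6 and 0.63 for LIF. Without hypoxia replicate 2 they were 0.15, -0.65, -1.22, -0.13 and -0.15. For CXCL2 and IL6 they were -2.24 and -1.13 without normoxia replicate 1, and -1.24 and 0.64 without normoxia replicate 2. Calls are not counted here, as each of these fits leaves 1 library in a group and no share over all genes was taken.

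**Figure D1:**
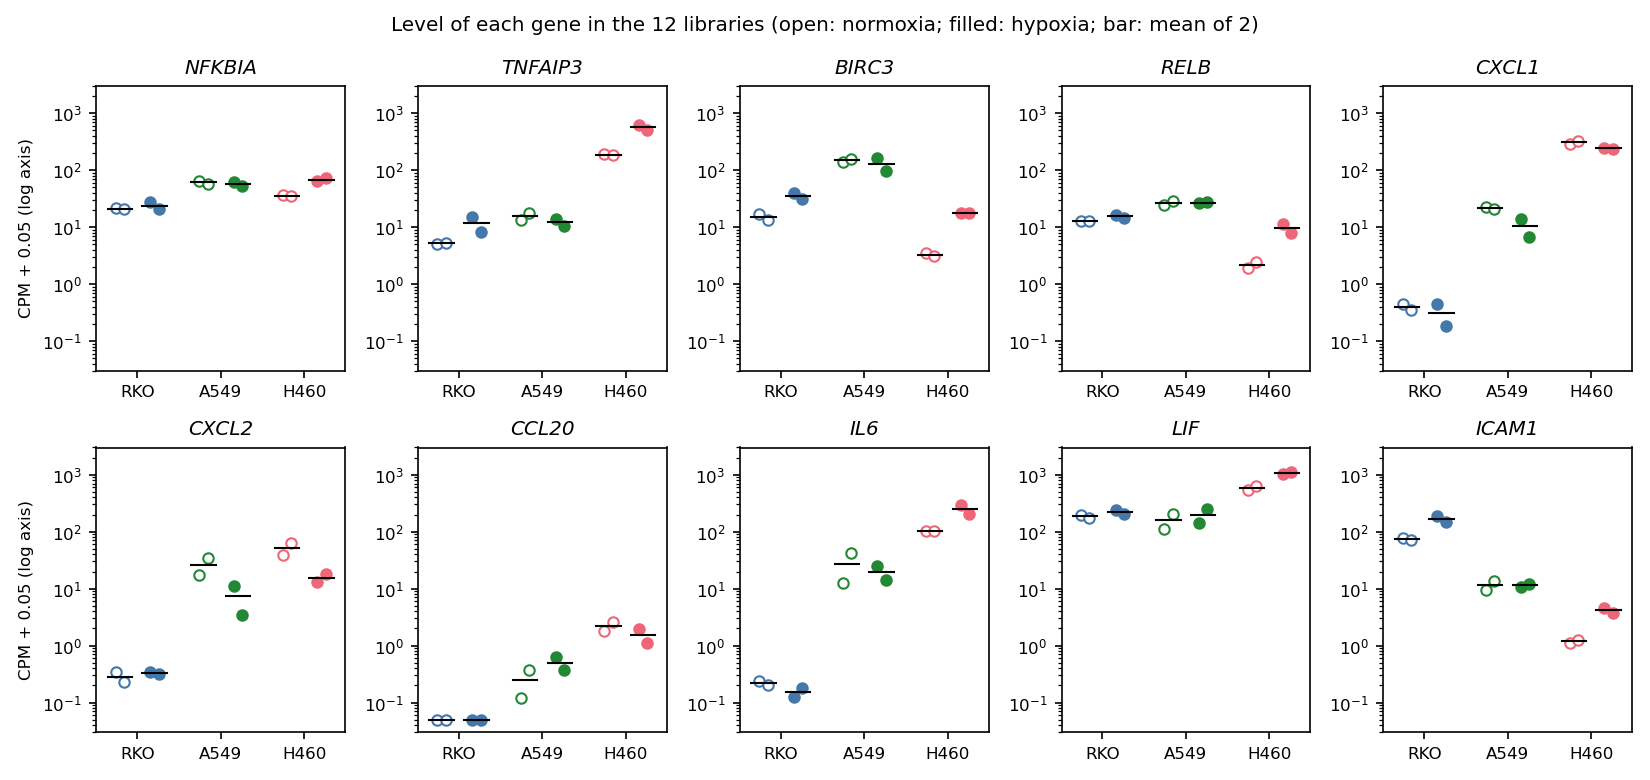
Level of each of the 10 genes in the 12 libraries, as CPM + 0.05 on a log axis shared by all panels, with normoxia open, hypoxia filled and a bar at the mean of the 2 replicates. CXCL1 stands at 0.133 to 0.399 CPM in RKO and at 238 to 332 CPM in H460, and in H460 the filled points lie above the open ones for NFKBIA, TNFAIP3, BIRC3, RELB, IL6, LIF and ICAM1.

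NFKBIA (chromosome 14, 35870716 to 35873960, minus strand, GRCh37, as are the positions that follow) encodes IkBa, the inhibitor that NF-kB induces first and that carries the dimer out of the nucleus. It was at 36.5 and 35.2 CPM in H460 normoxia and at 64.1 and 71.7 CPM in H460 hypoxia. The conditions did not overlap, and NFKBIA rose by a log2 fold change of 0.91 ± 0.10 (SE, adjusted p = 4.74e-06). RKO cells held 21.6 and 20.4 CPM in normoxia and 27.4 and 20.4 CPM in hypoxia, and A549 cells 65.0 and 57.4 CPM and then 60.9 and 53.6 CPM. Both sets overlapped, with log2 fold changes of -0.11 ± 0.18 (A549, adjusted p = 0.805) and 0.13 ± 0.19 (RKO, adjusted p = 0.642). Over the 12 libraries NFKBIA spanned 1.79 log2 units, the smallest range of the 10 genes.

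TNFAIP3 (chromosome 6, 138188325 to 138204451, plus strand) encodes A20, a ubiquitin-editing enzyme that shuts off signalling from the TNF receptor complex. An antisense gene, LOC100130476, overlaps it on the other strand, and the counting used the strand. H460 cells had 189 and 183 CPM in normoxia and 632 and 499.8 CPM in hypoxia, a log2 fold change of 1.59 ± 0.11 (adjusted p = 1.78e-07). Both H460 hypoxia libraries stood above every other library of the series. In RKO it went from 4.97 and 5.32 CPM to 15.2 and 8.26 CPM, a log2 fold change of 1.12 ± 0.29 (adjusted p = 0.0124). The conditions were apart in RKO too, but the hypoxia replicates differed, and without hypoxia replicate 1 the log2 fold change was 0.66 (adjusted p = 0.0853). A549 levels overlapped, at 13.3 and 17.5 CPM in normoxia and 13.7 and 10.5 CPM in hypoxia (log2 fold change -0.36 ± 0.25, adjusted p = 0.521).

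BIRC3 (chromosome 11, 102188181 to 102210135, plus strand) encodes cIAP2, a ubiquitin ligase that protects cells from TNF-induced death. It had the largest change of the 10 genes in H460, from 3.41 and 3.02 CPM to 17.9 and 17.6 CPM (log2 fold change 2.45 ± 0.15, adjusted p = 5.13e-08). In RKO it went from 16.7 and 13.3 CPM to 39.7 and 31.2 CPM (1.18 ± 0.20, adjusted p = 0.00130). A549 cells already held 141 and 156 CPM in normoxia, above all libraries of the other lines, and 166 and 94.8 CPM in hypoxia. The A549 hypoxia replicates lay on opposite sides of the normoxia libraries, and the change of -0.20 ± 0.25 was not called (adjusted p = 0.736).

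RELB (chromosome 19, 45504707 to 45541456, plus strand) encodes the NF-kB subunit of the non-canonical pathway, in which it pairs with the product of NFKB2. In H460 it went from 1.88 and 2.43 CPM to 11.5 and 7.72 CPM (log2 fold change 2.12 ± 0.23, adjusted p = 5.72e-06). Even the higher of these H460 values lay below every RKO and A549 library. RKO cells had 12.8 CPM in both normoxia libraries and 16.4 and 14.5 CPM in hypoxia (0.21 ± 0.20, adjusted p = 0.442), and A549 cells had 24.7 and 28.9 CPM and then 26.0 and 27.7 CPM (-0.01 ± 0.20, adjusted p = 0.984). RKO replicates were apart by condition and A549 replicates were not, and neither change was called.

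CXCL1 (chromosome 4, 74735109 to 74737019, plus strand) and CXCL2 (chromosome 4, 74962754 to 74964997, minus strand) encode close relatives that attract neutrophils through the receptor CXCR2. Reads of such similar genes can be lost or shared in alignment, so the split between them carries that limit. CXCL1 was at 294 and 332 CPM in H460 normoxia and at 246 and 238 CPM in hypoxia, a log2 fold change of -0.39 ± 0.09 that passed the p threshold (adjusted p = 0.00266) but not the fold threshold. CXCL2 fell in H460 from 39.1 and 62.2 CPM to 12.8 and 18.0 CPM (-1.73 ± 0.20, adjusted p = 1.12e-05). For both genes the H460 conditions did not overlap.

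In A549, CXCL1 stood at 22.2 and 20.8 CPM in normoxia and 13.8 and 6.69 CPM in hypoxia, with a log2 fold change of -1.08 ± 0.32 (adjusted p = 0.163). CXCL2 stood at 17.3 and 34.8 CPM and then at 11.3 and 3.46 CPM (-1.82 ± 0.50, adjusted p = 0.136). All A549 hypoxia libraries lay below the normoxia libraries for both genes, and neither change passed the threshold. With the replicate number as a block, the log2 fold changes were -1.16 ± 0.22 (adjusted p = 0.000229) and -1.92 ± 0.33 (adjusted p = 7.75e-05), and both were called. Without hypoxia replicate 1 they were -1.72 and -2.94, and without hypoxia replicate 2 they were -0.65 and -1.22. In RKO both genes were under the filter, with 5 to 16 reads per library for CXCL1 and 7 to 12 for CXCL2.

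CCL20 (chromosome 2, 228678558 to 228682280, plus strand) encodes the ligand of CCR6, which draws dendritic cells and lymphocytes. It was scarce in every line. H460 libraries held 50 and 88 reads in normoxia and 45 and 30 in hypoxia, or 1.77 and 2.58 CPM and then 1.90 and 1.04 CPM. The conditions overlapped, and the log2 fold change of -0.62 ± 0.32 was not called (adjusted p = 0.105), while the replicate block called it (-0.62 ± 0.29, adjusted p = 0.0454). Without H460 hypoxia replicate 1 it was -1.08 (adjusted p = 0.0107), and without H460 hypoxia replicate 2 it was -0.22 (adjusted p = 0.597). A549 libraries held 3 and 13 reads in normoxia and 24 and 11 in hypoxia, under the filter. RKO had 0 reads in all 4 libraries, where 3 counts over the normoxia pair would be 0.0387 CPM, and this floor covers counting error only.

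IL6 (chromosome 7, 22766766 to 22771621, plus strand) encodes interleukin-6, a cytokine that signals through gp130 and STAT3. It rose in H460 from 102 CPM in both normoxia libraries to 297 and 201 CPM (log2 fold change 1.27 ± 0.14, adjusted p = 8.07e-06), with no overlap. The A549 libraries disagreed. By replicate number IL6 was at 12.5 and then 25.2 CPM in replicate 1, and at 42.7 and then 14.0 CPM in replicate 2. The fitted log2 fold change of -0.50 ± 0.49 was not called (adjusted p = 0.650), and it was 0.64 without normoxia replicate 2, -1.13 without normoxia replicate 1 (adjusted p = 0.0700) and -1.01 without hypoxia replicate 1 (adjusted p = 0.0269). RKO libraries held 3 to 7 reads each and were under the filter.

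LIF (chromosome 22, 30636436 to 30642840, minus strand) encodes leukemia inhibitory factor, another gp130 cytokine, and was abundant in each line. H460 libraries had 531 and 623 CPM in normoxia and 1021 and 1096 CPM in hypoxia, a log2 fold change of 0.86 ± 0.11 (adjusted p = 1.71e-05). RKO libraries had 193 and 177 CPM and then 237 and 207 CPM (0.20 ± 0.15, adjusted p = 0.330). A549 libraries had 111 and 205 CPM and then 144 and 251 CPM (0.30 ± 0.32, adjusted p = 0.678). The H460 and RKO conditions did not overlap and the A549 conditions did, since both A549 libraries of replicate 2 lay above both of replicate 1. The A549 change was 0.63 without hypoxia replicate 1 (adjusted p = 0.0971), -0.15 without hypoxia replicate 2 and -0.07 without normoxia replicate 1.

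ICAM1 (chromosome 19, 10381517 to 10397291, plus strand) encodes an adhesion molecule that binds leukocyte integrins. ICAM1 had its highest level in RKO, where it went from 76.0 and 70.9 CPM to 188 and 149 CPM (log2 fold change 1.14 ± 0.16, adjusted p = 0.000551). H460 libraries held only 30 and 41 reads in normoxia and 108 and 107 in hypoxia, or 1.06 and 1.20 CPM and then 4.56 and 3.72 CPM (1.84 ± 0.25, adjusted p = 3.33e-05). Conditions were apart in both lines. In A549 the levels were 9.34 and 13.4 CPM and then 10.8 and 12.04 CPM, with no change called (-0.01 ± 0.26, adjusted p = 0.986). In the deposited annotation MIR548AR overlaps BIRC3, and the listed span of KIR2DL4, from its start to its end, meets both ICAM1 and RELB, each on the same strand. ICAM1 begins at 10381517 and RELB at 45504707 on chromosome 19. A listed span that meets both does not show that exons of KIR2DL4 overlap either. Strand alone does not separate genes that do overlap on the same strand, and the effect on the counts was not tested.

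**Figure D2:**
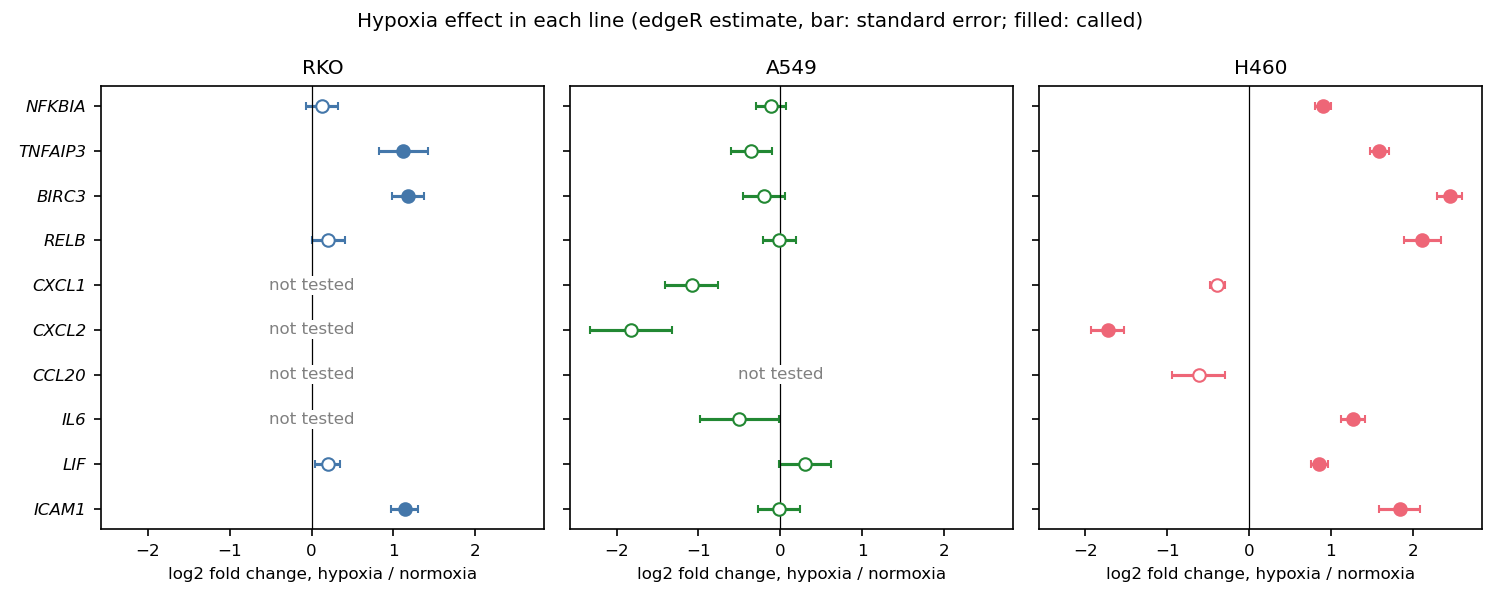
Log2 fold change of hypoxia over normoxia for each gene in each line (x axis), as edgeR estimates with their standard errors, filled where called and open where not. RKO has 3 filled points and H460 has 8, of which only CXCL2 lies below 0, and the A549 panel has only open points, with CXCL1 and CXCL2 farthest to the left.

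The differences between lines were tested in a joint fit of the 12 libraries, for genes over the filter in both lines. Between A549 and H460 the effect of hypoxia differed for 6 of 9 genes (NFKBIA, TNFAIP3, BIRC3, RELB, IL6 and ICAM1), all higher in H460, against 40.5% of the 13126 genes over the filter in both lines. Between RKO and A549 it differed for TNFAIP3, BIRC3 and ICAM1 of 6 genes, all higher in RKO, against 17.3% of 12209 such genes. Between RKO and H460 it differed for NFKBIA, BIRC3 and RELB of 6 genes, against 44.0% of 12135 such genes, to which 3 of 6 lies near. NFKBIA lost its call there with scaling by library size alone (-0.35, adjusted p = 0.239), which made 2, and without RKO hypoxia replicate 2 (-0.52, adjusted p = 0.110). By limma on log2 RPKM neither NFKBIA nor BIRC3 was called. For TNFAIP3, called higher in both of these lines, the difference of -0.42 ± 0.34 was not called (adjusted p = 0.381). For CXCL2 the difference between A549 and H460 was -0.09 ± 0.59 (adjusted p = 0.935).

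The replicate block changed some of these calls. It added LIF (-0.62, adjusted p = 0.00399) and ICAM1 (-0.66, adjusted p = 0.0593) to the differences between RKO and H460, which made 5. The ICAM1 difference depended on the method: limma on log2 RPKM at a pseudocount of 1 called it with the other sign (0.61, adjusted p = 0.0493). Between A549 and H460 it added CXCL1 (-0.77, adjusted p = 0.0385) and LIF (-0.55, adjusted p = 0.00818), which made 8. No share over all genes was taken for the block in the joint fit, so these counts have no background. Without RKO hypoxia replicate 1 the differences between RKO and H460 were -0.92 for TNFAIP3 and -0.83 for ICAM1.

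**Figure D3:**
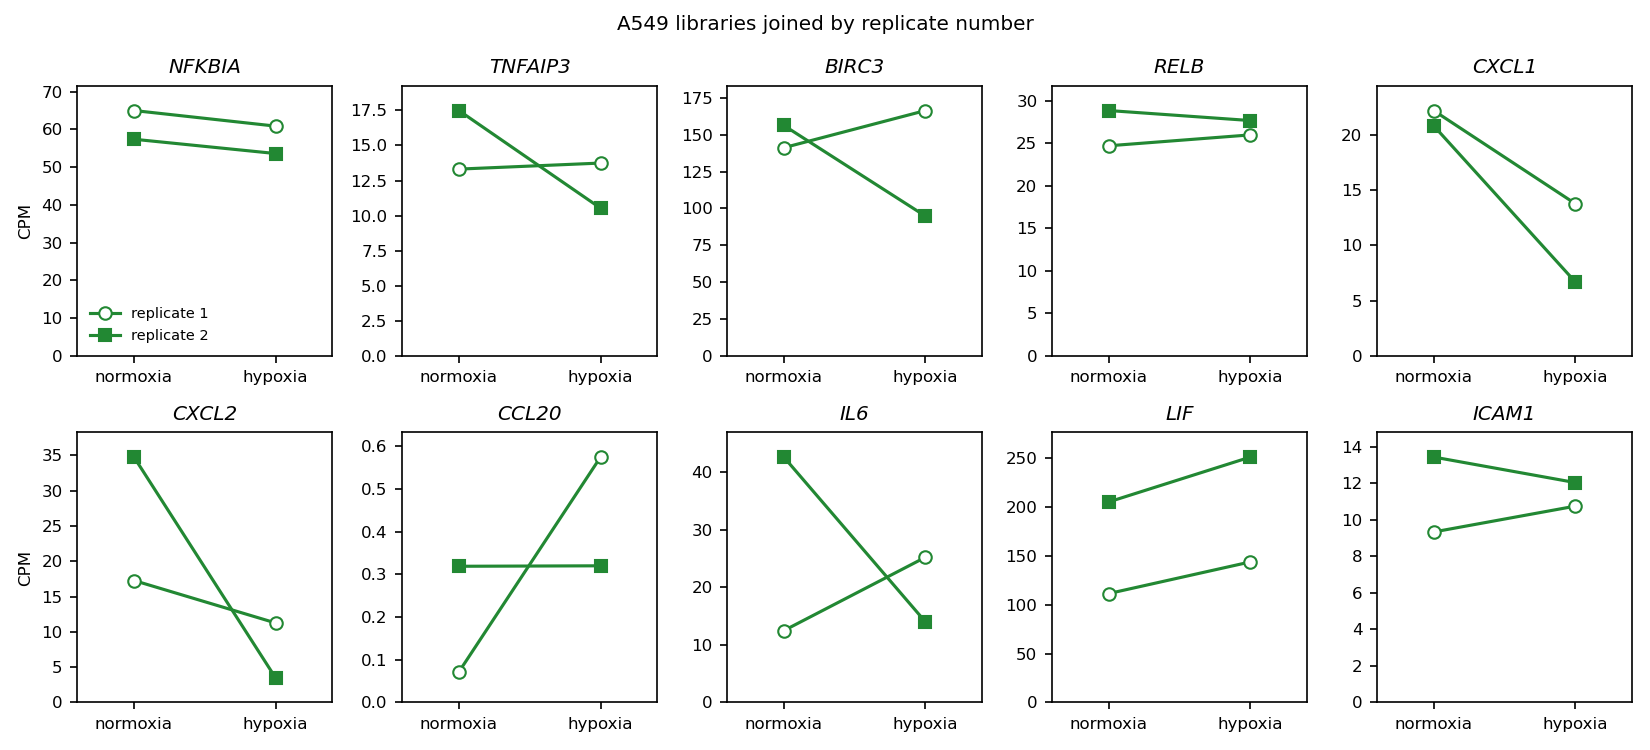
CPM of each gene in the A549 libraries (y axis from 0, scaled to each gene), with normoxia and hypoxia libraries of the same replicate number joined. CXCL1 and CXCL2 go down along both lines, LIF goes up along both, and IL6 and BIRC3 go up in replicate 1 and down in replicate 2.

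Levels in normoxia were compared between lines in the same joint fit. All 10 genes differed between H460 and each of the other lines, against 61.9% of 15595 tested genes for RKO and 52.1% for A549. Between A549 and RKO 9 of the 10 differed, against 60.2%. The exception was LIF between RKO and A549 (0.23 ± 0.26 on the log2 scale, adjusted p = 0.458). CXCL2 differed 1.95-fold between A549 and H460 (adjusted p = 0.0592), and it was not called with DESeq2, with limma at a pseudocount of 0.1, without A549 normoxia replicate 1 (adjusted p = 0.326) or without H460 normoxia replicate 2 (adjusted p = 0.364), which left 9 of 10. Shares of this height in the background mean that these counts say little about the 10 genes as a set.

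The order of the lines was not the same for all genes. CXCL1, CXCL2, IL6 and TNFAIP3 were highest in H460 and lowest in RKO. CXCL1 was 888-fold higher in H460 than in RKO (27 against 19589 reads over both normoxia libraries) and 14.5-fold higher than in A549. IL6 was 595-fold and 3.70-fold higher in H460, CXCL2 215-fold and 1.95-fold, and TNFAIP3 36.0-fold and 12.05-fold. CCL20 had no reads in RKO, and 3 counts over the RKO normoxia pair were taken as the floor. The mean CPM lay 56.2-fold above this floor in H460 and 5.04-fold above it in A549. The A549 mean rests on only 3 and 13 reads, and its error is not part of these folds.

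BIRC3, RELB and NFKBIA had their highest normoxic level in A549. BIRC3 was 46.4-fold higher there than in H460 and 9.93-fold higher than in RKO, and RELB 12.3-fold and 2.09-fold. ICAM1 went the other way from the chemokines, with RKO 6.45-fold above A549 and 64.4-fold above H460. RKO thus held the most ICAM1 and the least IL6, CXCL1 and CXCL2 of the lines, and H460 the reverse.

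Hypoxia moved some groups past others in this order. In H460 the hypoxic level of NFKBIA (mean 67.9 CPM) overlapped that of A549 normoxia (61.2 CPM), while the H460 normoxia level lay below it. The BIRC3 mean of H460 hypoxia (17.7 CPM) passed RKO normoxia (15.0 CPM) with no overlap. CXCL2 in H460 hypoxia (15.4 CPM) overlapped neither of its own normoxia libraries and overlapped the range of A549 normoxia (26.0 CPM). ICAM1 in H460 stayed below A549 in hypoxia (4.14 against 11.4 CPM).

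Per unit of transcript length, CXCL1 led the 10 genes in H460 normoxia with 273 ± 27.3 RPKM (SD, n = 2), ahead of LIF (152 ± 19.3) and IL6 (89.7 ± 1.59). In H460 hypoxia LIF (215 ± 18.9 RPKM) and IL6 (169 ± 40.0) stood ahead of CXCL1 (164 ± 2.28), although IL6 and CXCL1 overlapped. RKO normoxia was led by LIF (49.6 ± 1.97 RPKM) and ICAM1 (24.1 ± 0.612), and A549 normoxia by LIF (42.2 ± 18.1) and NFKBIA (41.2 ± 3.15). LIF was thus first or second of the 10 genes by RPKM in every group.

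Other genes of the pathway were read from 6 lists. Each count below with TMM scaling stands against the share of all tested genes called in that direction with TMM. This share was 24.6% higher and 27.3% lower in H460, 18.8% and 15.1% in RKO, and 2.22% and 0.456% in A549. No share was taken with library size alone, which moved all tested genes in H460 by a median of -0.35, so its counts have no background. Among 32 ligands, receptors and adapters upstream of NF-kB, RKO had 4 called higher of 20 tested, near the background of 18.8%, led by IL1RAP, the shared receptor subunit of the interleukin-1 family (5.62 CPM mean in normoxia and 50.1 in hypoxia, log2 fold change 3.09 ± 0.25, adjusted p = 5.50e-05). In H460, 8 of 25 were called higher and 4 lower, against 24.6% and 27.3%, and 6 and 6 were called with scaling by library size alone. The highest was TNFSF10, the death ligand TRAIL, at 2.45 ± 0.50 on only 3 to 24 reads per library, and the lowest was TRAF3, an adapter that restrains the non-canonical pathway (-1.01 ± 0.09). Genes of the interleukin-1 system were looked up in H460 for their role after the values were seen. IL1A rose (2.02 ± 0.15), IL1B rose at a low level (mean 0.203 CPM in normoxia and 0.774 in hypoxia, 1.84 ± 0.47), and the receptor gene IL1R1 was called lower (-0.93 ± 0.14, adjusted p = 7.78e-05). IL1RAP was called higher in H460 too, from a mean of 35.1 to 149 CPM (2.07 ± 0.09, adjusted p = 5.53e-09). Of the signalling genes behind these receptors, IRAK2 was called higher (1.496 ± 0.24), and MYD88, IRAK1 and IRAK4 were not called. TNF was under the filter in all lines.

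Of 22 kinases, NF-kB subunits and other inhibitors, H460 had 8 called higher and 4 lower (5 and 5 with scaling by library size alone), RKO 5 and 2, and A549 a single one called higher. The RKO counts lie near or under the background of 18.8% and 15.1%, and the background in H460 was 24.6% and 27.3%. TNIP1, which binds A20 and restrains the pathway, was called in each line, at 2.37 ± 0.10 in H460, 1.21 ± 0.19 in RKO and 0.92 ± 0.17 in A549. In A549 it was the only gene of this list that was called (adjusted p = 0.0409). The highest in RKO was BCL3, a nuclear IkB protein (1.62 ± 0.31), and the lowest NFKBIB, the inhibitor IkBb (-0.72 ± 0.18). The highest in H460 was NFKB2, the partner of RELB (2.59 ± 0.11), and the lowest IKBKE, a non-canonical IkB kinase (-1.36 ± 0.19).

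The remaining subunits of NF-kB were looked up after the values were seen. RELA, the transactivating subunit of the canonical dimer, rose in H460 from a mean of 40.5 to 236 CPM (2.53 ± 0.12, adjusted p = 9.05e-09) and was not called in RKO (0.32 ± 0.17) or A549 (0.11 ± 0.19). REL rose in RKO and H460 (0.68 ± 0.18 and 1.30 ± 0.10). NFKB1, which encodes p105 and p50, was called lower in RKO (-0.67 ± 0.15).

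Of 19 other chemokines and cytokines, H460 had 3 called higher and 1 lower of 7 tested (2 and 3 with scaling by library size alone), against 24.6% and 27.3%, and RKO 1 and 1 of 6, near its background of 18.8% and 15.1%. IL11, a gp130 cytokine like IL6 and LIF, led in RKO (2.61 ± 0.28, adjusted p = 0.000146) and IL32 was lowest (-0.76 ± 0.18). CXCL8, a neutrophil chemokine of the same family as CXCL1 and CXCL2, led in H460, from 494 and 585 CPM to 1622 and 1356 CPM (1.45 ± 0.12, adjusted p = 5.80e-07). CSF1, the macrophage growth factor, was lowest there (-2.45 ± 0.13). The chemokines CXCL3 and CXCL5, named here as family members after the values were seen, were not called in H460 (-0.43 ± 0.20 and -0.42 ± 0.09) or A549 (-0.92 ± 0.43 and -0.70 ± 0.44). In H460 the CXCR2 ligands thus did not move one way, with CXCL8 called higher and CXCL2 called lower.

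Of 23 other NF-kB targets, H460 had 13 called higher and 2 lower of 19 tested (10 and 4 with scaling by library size alone), RKO 8 and 1 of 19, and A549 4 called higher of 22. The shares of all genes called higher were 24.6% in H460, 18.8% in RKO and 2.22% in A549. F3, which encodes tissue factor, led in A549 (2.03 ± 0.30, adjusted p = 0.0155) and the stress factor ATF3 in RKO (2.02 ± 0.55). The RKO replicates differed for ATF3, at 17.5 and 3.46 CPM in normoxia and 60.0 and 28.9 CPM in hypoxia. The lowest were SOD2, the mitochondrial superoxide dismutase, in RKO (-1.07 ± 0.16) and CD83 in H460 (-1.58 ± 0.35, on 10 to 43 reads per library). The median log2 fold change of this list was 1.00 in H460, 0.49 in RKO and 0.20 in A549, or 0.65, 0.58 and 0.10 with scaling by library size alone. The A549 count was 1 with library size alone and, with the replicate block, 6 higher and 2 lower.

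Of 13 receptors and signal transducers of IL6 and LIF, RKO had 2 called higher of 12 tested, near the background of 18.8%, led by PIAS3, an inhibitor of STAT3 (0.68 ± 0.17). In H460, 5 of 12 were called higher and 1 lower (4 and 2 with scaling by library size alone), against 24.6% and 27.3%. IL6R, which encodes the IL6 receptor, led there (1.73 ± 0.13, adjusted p = 2.27e-07). Of 13 factors of mRNA decay, a group that includes proteins that shorten the life of cytokine mRNAs, 1 was called higher and 3 lower in RKO and 4 higher and 2 lower in H460 (2 and 6 with scaling by library size alone). The background was 18.8% higher and 15.1% lower in RKO and 24.6% and 27.3% in H460. ZFP36, which encodes the AU-rich element binding protein tristetraprolin, led in H460 (1.77 ± 0.09) and the deadenylase subunit PAN2 in RKO (1.49 ± 0.17), and the deadenylase PARN was lowest in both (-0.83 ± 0.16 in RKO and -1.05 ± 0.09 in H460).

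In A549, edgeR called 0 genes of 4 of these lists. Over all 14251 tested genes of this line, 2363 had an unadjusted p under 0.05, and the replicate block called 8.34% higher and 5.07% lower. No such share was taken for DESeq2 and limma. Among 25 tested ligands, receptors and adapters, 5 had an unadjusted p under 0.05, DESeq2 called 1, limma 0 and the replicate block 4, all higher. Among 13 other chemokines and cytokines these numbers were 1, 1, 0 and 3 (1 higher and 2 lower). Among 12 receptors and transducers of IL6 and LIF they were 1, 0, 0 and 0, and among 13 decay factors 1, 1, 0 and 1.

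**Figure D4:**
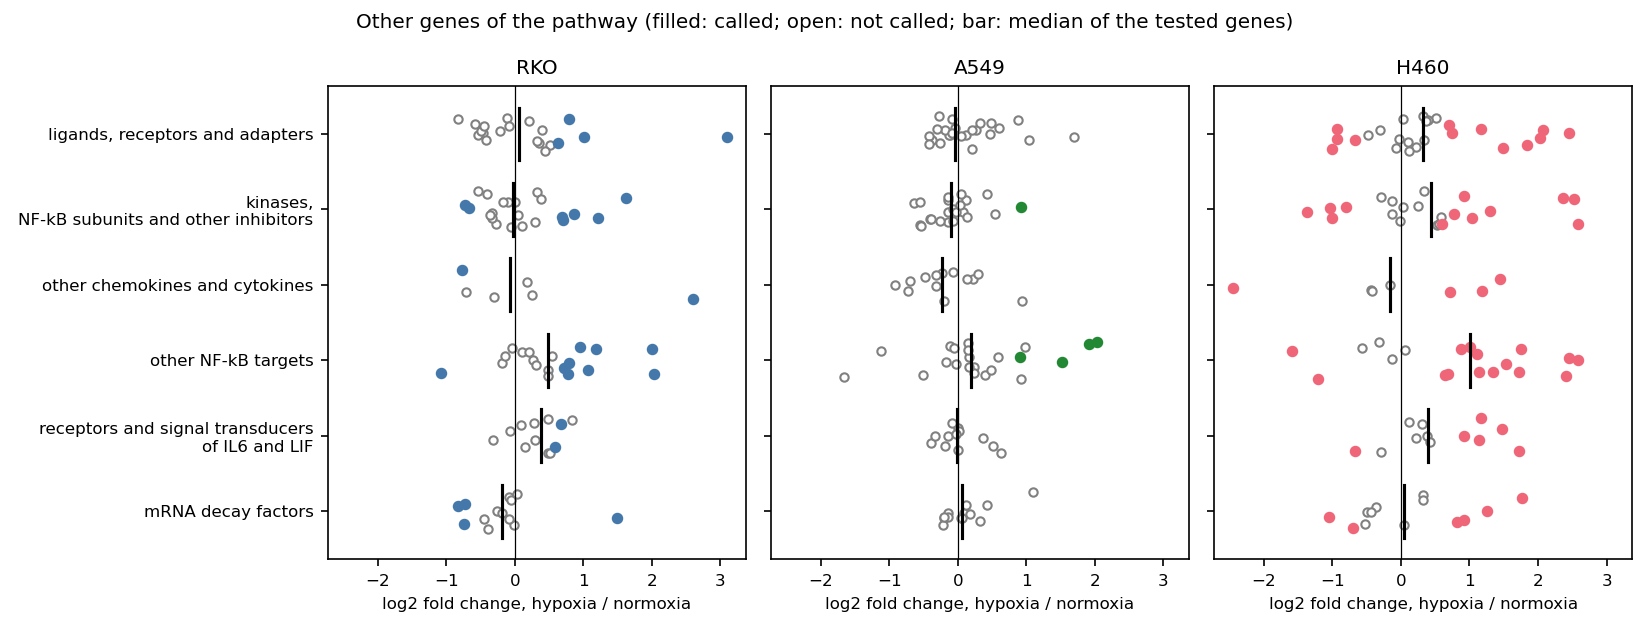
Log2 fold change of hypoxia over normoxia (x axis) for the tested genes of the 6 lists in each line, with called genes filled, other genes open and a bar at the median of each list. The H460 panel has the most filled points on both sides of 0, and its medians for the ligand list and the decay list are 0.33 and 0.05 here but -0.02 and -0.30 with scaling by library size alone.

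For each gene the most similar pattern over the 12 libraries was sought among about 11665 genes with a mean over 5 CPM, by the root mean square difference of centred log2 CPM. The nearest to NFKBIA was NF1 (0.17 log2 units), to TNFAIP3 CD55 (0.27), to BIRC3 FBXO32 (0.48), to RELB TCEAL3 (0.30) and to ICAM1 MMP14 (0.44). For the secreted factors they were CYP4F11 for CXCL1 (0.47), INSL4 for CXCL2 (0.57), ZNF565 for CCL20 (0.22), CCDC68 for IL6 (0.48) and NEK7 for LIF (0.21). None of the 10 genes was the nearest of another. The libraries share 3 lines, so these distances mostly describe the levels of the lines.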

How the data were processed

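Strand-specific poly(A)+ RNA was sequenced from 12 libraries (3 cell lines, 2 oxygen conditions, 2 replicates each). According to the labels' processing notes and the methods of the study, the authors aligned reads to GRCh37/hg19 with TopHat2 2.0.13, removed reads of low mapping quality with SAMtools, marked duplicates with Picard 1.129, and assigned reads to genes on the sense strand with HTSeq 0.6.1. The authors deposited a raw count per gene and library, which was the input of all fits, and an RPKM value, which is proportional to that count over the listed gene length times the library total. The other deposited columns give the symbol, chromosome, start, end, strand and length, and the starts were converted to 1-based positions. Every column of the files was matched to a sample or to gene annotation (0 columns unused). Sequences were taken from a RefSeq promoter table of another build (GRCh38.p14), and no coordinate was converted between builds.

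Each line was fitted on its 4 libraries with edgeR 4.0.16 in R 4.3.3 (TMM, quasi-likelihood F test) over genes above 0.5 CPM in at least 2 libraries. A gene was called at a Benjamini-Hochberg adjusted p under 0.1 and a fold change over 1.5, thresholds that the study used with DESeq2. Adjusted p-values are edgeR values over all tested genes unless another tool is named. Differences between lines came from a joint edgeR fit of the 6 group means. Effects of hypoxia were called there by adjusted p alone, and levels by both thresholds. Standard errors are the absolute log2 fold change over the square root of F, and CPM is relative to the reads in the genes of the joint fit, so ratios of mean CPM differ slightly from fitted folds. Alternatives were RLE factors, library size alone, no filter, a filter at 1 CPM, DESeq2 1.42.0, a replicate block, the joint fit, an adjusted p under 0.05, a fold of 2 or none, limma 3.58.1 on log2 RPKM with a pseudocount of 0.1 or 1, and leaving out each library. The scripts were tested on simulated data.

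The labels give replicate numbers but do not say what a number shares. Deviations of same-numbered libraries from their group means correlated over genes at 0.357 in RKO, 0.371 in A549 and 0.145 in H460, all above 0.1, so the numbers were taken as pairs and the block is given where it changed a call. In each group the 2 libraries differed beyond counting noise (chi-square per degree of freedom 9.60 to 72.0), so no library was counted as a duplicate. The 10 genes and the 7 gene lists were chosen with earlier results of these data known. Genes named besides the 10 are the called gene with the highest and with the lowest fold change of each list in each line and the nearest pattern of each of the 10, and any other gene is said to be chosen after its values were seen. Some genes that this rule would name are not reported here. IL8 was matched to CXCL8 by its RefSeq synonym.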

Additional observations from a re-analysis of the deposited data

Results flagged for a closer look

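Each result here is a difference between 2 lines in the effect of hypoxia (log2 fold change in the first line minus that in the second) that passed its own test in the joint edgeR fit. Between RKO and A549 the effect was higher in RKO by 1.53 ± 0.34 for TNFAIP3 (adjusted p = 0.0164), 1.43 ± 0.31 for BIRC3 (adjusted p = 0.0138) and 1.20 ± 0.26 for ICAM1 (adjusted p = 0.0133). In RKO all hypoxia libraries lay above the normoxia libraries for these genes, while in A549 the conditions overlapped.

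Between RKO and H460 the difference was -0.73 ± 0.23 for NFKBIA (adjusted p = 0.0245), -1.22 ± 0.33 for BIRC3 (adjusted p = 0.0138) and -1.87 ± 0.31 for RELB (adjusted p = 0.000606). BIRC3 was called higher in both lines and NFKBIA and RELB in H460. The NFKBIA difference was not called with scaling by library size alone (-0.35, adjusted p = 0.239), with limma at a pseudocount of 0.1 (-0.36, adjusted p = 0.174) or 1 (-0.35, adjusted p = 0.167), or without RKO hypoxia replicate 2. The BIRC3 difference was not called with limma (-0.67, adjusted p = 0.155, and -0.067, adjusted p = 0.901).

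Set against H460, the effect in A549 differed by -1.02 ± 0.22 for NFKBIA (adjusted p = 0.00459), -1.95 ± 0.33 for TNFAIP3 (adjusted p = 0.000939), -2.65 ± 0.33 for BIRC3 (adjusted p = 0.000142), -2.14 ± 0.30 for RELB (adjusted p = 0.000331), -1.78 ± 0.56 for IL6 (adjusted p = 0.0303) and -1.86 ± 0.31 for ICAM1 (adjusted p = 0.000906). These 6 genes were called higher in H460. The IL6 difference was not called with DESeq2 (adjusted p = 0.113), with limma (adjusted p = 0.160 and 0.153), without A549 normoxia replicate 2 (-0.63, adjusted p = 0.223) or without H460 hypoxia replicate 1 (-1.499, adjusted p = 0.115). No group has 4 libraries, so no library could be tested as an outlier within its group.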

How the results depend on the processing

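Here the counts between lines were taken over all 10 genes of the joint fit, also genes under the filter in a line. For most alternatives no share over all tested genes was taken, so these counts have no background. Counts of called genes kept within 1.5 times of the reported count in 169 comparisons with an alternative and left that range in 11. The exceptions were the A549 count of 0, which was 2 with no filter, 1 with DESeq2, 2 with the replicate block, 2 in the joint fit and 0 to 5 when each library was left out in turn, the count of 3 between RKO and H460, which was 6 with no filter, 5 with the replicate block and 2 to 5 leaving out each library, and the count of 3 between RKO and A549, which was 5 with limma at a pseudocount of 1. Within that range, the count between RKO and H460 was 2 with library size alone and with limma at a pseudocount of 0.1. Normoxic levels differed between A549 and H460 for 9 of 10 genes with DESeq2, an adjusted p under 0.05 or limma at a pseudocount of 0.1. The 2 with limma between RKO and H460 were RELB and CXCL2, and CXCL2 was under the filter in RKO. Of the genes over the filter in both lines, only RELB kept its call there. Genes under the filter in RKO also entered the 6 with no filter (CXCL2 and IL6) and the 5 between RKO and A549 (CXCL1 and CXCL2). Leaving out each library gave 3 in RKO, 8 to 9 in H460, 3 to 4 between RKO and A549 and 5 to 8 between A549 and H460. The replicate block changed no call of a single gene beyond those given with the results. Of single log2 fold changes, 280 kept direction and call, 26 passed the threshold only under an alternative and 7 lost it (NFKBIA and LIF in H460 with library size alone and with limma at both pseudocounts, and ICAM1 in H460 at 0.57 with limma at a pseudocount of 1). The sign turned only for genes that were not called. In A549, ICAM1 was 0.0069 with the replicate block and 0.00047 in the joint fit, and RELB 0.0027 in the joint fit. Leaving out each library in turn, A549 values ran from -0.25 to 0.27 for ICAM1, -0.12 to 0.10 for RELB, -0.15 to 0.80 for LIF, -1.13 to 0.64 for IL6 and -0.68 to 0.15 for BIRC3, and RKO values from -0.065 to 0.31 for NFKBIA. The cause was not tested. Leaving out a library leaves 1 in its group, which is then assumed to vary like the others. With 2 replicates the standard error of a change was typically (median) 0.22 in A549, 0.18 in RKO and 0.11 in H460, and the effect of hypoxia on CCL20 in RKO and A549 and on IL6, CXCL1 and CXCL2 in RKO was not tested, as too few reads passed the filter.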

Other observations

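In A549 the 2 hypoxia libraries differed from each other for several of these genes and for a decay factor that acts on such mRNAs. ZFP36, which encodes tristetraprolin, was at 24.3 CPM in hypoxia replicate 1 and 67.0 CPM in hypoxia replicate 2, and at 23.8 and 18.4 CPM in the normoxia libraries. The library with the highest ZFP36 level held the lowest A549 levels of CXCL1 (6.69 CPM), CXCL2 (3.46 CPM), BIRC3 (94.8 CPM), TNFAIP3 (10.5 CPM) and NFKBIA (53.6 CPM), and the highest level of LIF (251 CPM). IL6 (14.0 CPM), RELB (27.7 CPM), ICAM1 (12.04 CPM) and CCL20 (0.320 CPM) were neither lowest nor highest there. ZFP36 was set beside these genes after its values were seen, 1 library gives the pattern, and a relation was not tested.

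In H460, ZFP36 was at 33.3 and 32.5 CPM in normoxia and at 121 and 107 CPM in hypoxia, and there IL6, CXCL8, LIF and TNFAIP3 were called higher and CXCL2 lower. In RKO, ZFP36 was at 17.2 and 17.0 CPM in normoxia and at 20.6 and 14.9 CPM in hypoxia.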
